A study of Mus musculus with 7 samples.

Results

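Lung monocytes with a low ferritin reporter signal were compared after lipopolysaccharide (LPS) and without treatment, using 4 of the 7 libraries of the study: 2 of LPS Fth1-low cells and 2 of untreated Fth1-low cells. The labels gave each library its group. All cells came from the lungs of Fth1-mScarlet x Lyz2GFP mice, which carry a fluorescent reporter of Fth1, the ferritin heavy chain, and a GFP reporter of Lyz2, the lysozyme gene of myeloid cells. Cells were sorted as Lyz2GFP+CD11b+Ly6C+Ly6G-, a gate that takes monocytes and young macrophages and leaves out neutrophils, and both groups then had a low mScarlet signal. The LPS mice had received 20 µg of LPS from E. coli 0111:B4 in 50 µl by way of the trachea, under isoflurane, 3 days before the lungs were taken. The other mice were untreated, so LPS and the instillation cannot be told apart. The labels give neither the age of the mice nor how many stand behind a library, so the p-values below speak of the spread among these libraries, part of which may be technical.

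LPS is an outer membrane component of Gram-negative bacteria that myeloid cells sense through TLR4 with CD14 and MD-2. TLR4 signals through NF-kB to cytokine and chemokine genes and through IRF3 to type I interferon, and interferon-gamma from lymphocytes can add a further layer through IRF1. Mouse blood monocytes are classical, Ly6C-high cells that enter inflamed tissue and can become macrophages, or nonclassical, Ly6C-low cells that patrol the vessel wall and need the transcription factor NR4A1.

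The libraries differed in quality, and LPS Fth1-low replicate 1 stood apart. It held 637787 counts, where the other 3 Fth1-low libraries held 10459703 to 22995442, so after scaling to CPM, the depth-scaled count used throughout, 1 count there stood for 1.67 CPM and 3 counts for 5.02 CPM. The share of ribosomal RNA genes there was 19.5% (19.4% to 19.6%, Wilson interval at 95%), and 1.86% to 4.17% in the other Fth1-low libraries. Of the 13665 genes tested, 1793 had no count there and 6800 had under 10 counts. The female transcript Xist and the Y-linked Ddx3y were both present in each LPS library, at 71.9 and 68.6 CPM in replicate 1 and at 176 and 37.2 CPM in replicate 2. In the untreated libraries they were 3.58 and 97.9 CPM in replicate 1 and 274 and 0.186 CPM in replicate 2. Below, paired values are in replicate order, log2 changes are LPS minus untreated with the standard error, and adjusted p is the Benjamini-Hochberg value over all tested genes from edgeR's quasi-likelihood test.

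The sort markers were those of the gate. Lyz2 stood at 12493 and 11146 CPM in the untreated libraries and at 7119 and 9146 CPM after LPS, and was not called (-0.54 ± 0.31, adjusted p = 0.54). Itgam, which encodes CD11b, was 936 and 1183 CPM untreated and 749.5 and 1115 CPM after LPS (adjusted p = 0.88). Ly6c2, the Ly6C antigen of classical monocytes, was 562 and 764 CPM untreated and 1392 and 847 CPM after LPS (0.75 ± 0.34, adjusted p = 0.39). Ly6g, the neutrophil antigen gated out, had at most 2 counts in any library. Fth1 itself was 1785 and 1671 CPM untreated and 2968 and 4822 CPM after LPS, so the groups did not overlap. Its change of 1.17 ± 0.35 missed the threshold (adjusted p = 0.14), but DESeq2 called it (adjusted p = 0.0012). Ftl1, the ferritin light chain, overlapped between groups, at 522 and 439.8 CPM untreated and 686 and 478 CPM after LPS (adjusted p = 0.79).

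LPS was followed by more rises than falls in Fth1-low cells. Of the 13665 genes tested, 409 (2.99%) rose and 86 (0.629%) fell, together 3.62%. The libraries of the groups did not overlap for 483 of these 495 genes, a separation that 39.5% of all tested genes showed (16.3% higher, 23.2% lower). The median change over all tested genes was -0.05. Counts of called list genes below are to be read beside the 2.99% higher and 0.629% lower of all tested genes. In bulk libraries such as these, fewer cells of a type and less RNA per cell cannot be told apart. The counts depended on single libraries: 359 higher and 22 lower without LPS replicate 1, 282 and 249 without LPS replicate 2, 179 and 18 without untreated replicate 1, and 203 and 11 without untreated replicate 2. Of the 495 genes, 355 were called with LPS replicate 2 alone, 235 with replicate 1 alone and 198 with either, of which 183 were higher and 15 lower. With replicate 1 alone the direction was not kept for 12 genes called higher, and 10 of these had no count in that library. The plot of both changes for each called gene shows these points at the lower right.

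**Figure D1:**
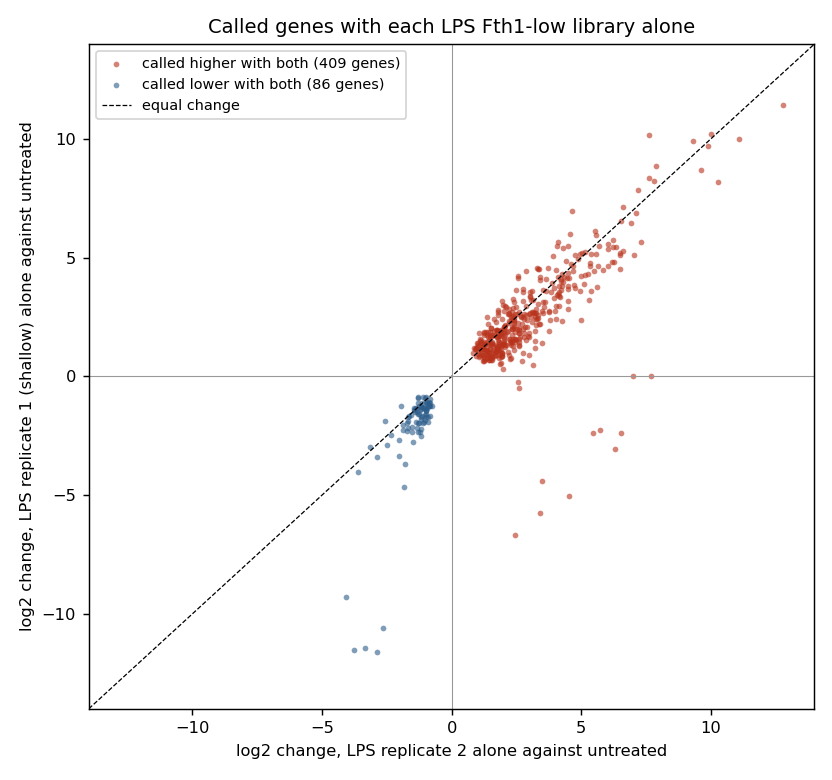
Log2 change against the untreated libraries for the 495 called genes, with LPS replicate 2 alone on the horizontal axis and the shallow LPS replicate 1 alone on the vertical axis. Each point is 1 gene, red for the 409 called higher and blue for the 86 called lower; most lie along the dashed line of equal change, and the 5 blue points at the bottom had no count in LPS replicate 1, so their vertical values depend on the prior count.

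Genes for the interferon-gamma-induced GTPases rose as a group. These guanylate-binding proteins (GBP) and immunity-related GTPases (IRG) assemble on the membranes around intracellular microbes. Of 16 tested, 13 rose (81.2%, against 2.99% of all tested genes) and none fell, with a median log2 change of 2.50. All 16 were higher in both LPS libraries than in both untreated libraries, as were 16.3% of all tested genes. With any 1 library left out, 11 to 14 of them were called.

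Promoter sequences are shown here because these genes moved together. RefSeq promoter windows (GRCm38.p6, 250 bases before each start) were searched on both strands for GAAA, NN and GAAA in a row, where N is any base (the core of the interferon-stimulated response element bound by IRF factors), and for an NF-kB motif, GGGA, N and TTTCC in a row. The first occurred in 2.98% of all 32851 windows and in 2.81% of those of tested genes. It occurred in 9 of 11 windows of the GTPase list, which cover 10 genes, and in 14 of 28 windows of the type I interferon list. Genes called higher held it in 7.09% of 395 windows and genes called lower in 1.12% of 89. The NF-kB motif occurred in 0.356% of all windows and in 3 of 16 windows of the chemokine list, those of Cxcl1, Cxcl2 and Cxcl3. Genes called higher held the NF-kB motif in 1.52% of windows, genes called lower in 1.12% and tested genes in 0.395%. The type I interferon list had it in 0 of 28 windows, the GTPase list in 1 of 11 and the cytokine list in 2 of 24. Matches of both motifs occurred together in 7 windows and shared bases in 1 of them. A match describes letters, not a bound site. The Gbp5 stretch below lies before a RefSeq start but inside the span that GENCODE gives the gene (chromosome 3, 142493978 to 142522344). The stretches below are 100 bases long, on the gene's strand, with matches of the motif in capitals (on either strand, so that TTTC can come first):
Gbp5, interferon motif, chr3:142496729-142496828, plus strand: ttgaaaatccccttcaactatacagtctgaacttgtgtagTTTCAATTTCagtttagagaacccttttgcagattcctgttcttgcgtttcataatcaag
Gbp7, interferon motif, chr3:142530236-142530335, plus strand: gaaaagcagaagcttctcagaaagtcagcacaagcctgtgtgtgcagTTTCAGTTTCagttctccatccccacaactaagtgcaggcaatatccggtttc
Igtp, interferon motif, chr11:58199456-58199555, plus strand: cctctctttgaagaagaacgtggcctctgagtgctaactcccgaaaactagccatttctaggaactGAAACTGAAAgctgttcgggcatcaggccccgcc
Cxcl10, interferon motif, chr5:92349040-92349139, minus strand: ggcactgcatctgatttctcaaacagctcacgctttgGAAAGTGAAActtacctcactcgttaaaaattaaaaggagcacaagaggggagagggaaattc
Ifit1, interferon motif, chr19:34640745-34640844, plus strand: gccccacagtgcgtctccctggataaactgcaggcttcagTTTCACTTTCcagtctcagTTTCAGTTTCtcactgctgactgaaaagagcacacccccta
Cxcl1, NF-kB motif, chr5:90891134-90891233, plus strand: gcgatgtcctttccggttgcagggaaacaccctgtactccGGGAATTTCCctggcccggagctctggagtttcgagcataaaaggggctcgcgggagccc
Cxcl2, NF-kB motif, chr5:90903762-90903861, plus strand: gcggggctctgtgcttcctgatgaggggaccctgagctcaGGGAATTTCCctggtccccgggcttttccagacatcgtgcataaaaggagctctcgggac

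Gbp2 (chromosome 3, 142620602 to 142638008 in GRCm38, plus strand), a membrane-binding GTPase of this group, stood at 86.0 and 87.2 CPM untreated and at 952 and 1409 CPM after LPS (3.77 ± 0.30, adjusted p = 1.7e-04). Gbp5, a GTPase that promotes inflammasome assembly, went from 18.3 and 28.04 CPM to 430.0 and 393 CPM (4.16 ± 0.33, adjusted p = 1.7e-04). Both rises were larger than the spread within either group. The LPS libraries lay close together for Gbp5, while the Gbp2 change was 3.44 with LPS replicate 1 alone and 4.05 with replicate 2 alone. Gbp6 was 5.62 and 9.41 CPM untreated and 152 and 161 CPM after LPS (4.41 ± 0.30, adjusted p = 7.2e-05). Gbp4 was 8.12 and 11.3 CPM untreated and 176 and 189 CPM after LPS (4.25 ± 0.36, adjusted p = 2.1e-04). Iigp1, an IRG protein that damages pathogen vacuoles, was 6.45 and 2.33 CPM untreated and 117 and 116 CPM after LPS (4.66 ± 0.48, adjusted p = 6.8e-04, and 5.63 without untreated replicate 1). Gbp7, whose promoter stretch is printed above, rose by 2.32 ± 0.31 (adjusted p = 0.0032). These 6 genes kept their calls with any 1 library left out. Igtp, also printed, rose by 1.75 ± 0.29 (adjusted p = 0.0092) but lost its call without untreated replicate 1 (0.11), untreated replicate 2 (0.064) or LPS replicate 2 (0.059). The 3 members not called were Irgm2 (1.196, adjusted p = 0.061), Gvin1 (0.94, 0.47) and Gbp9 (0.54, 0.58). GBP genes are close paralogs that can share reads, and Gbp4 overlaps Gbp8 and Gbp9 on the same strand.

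**Figure D2:**
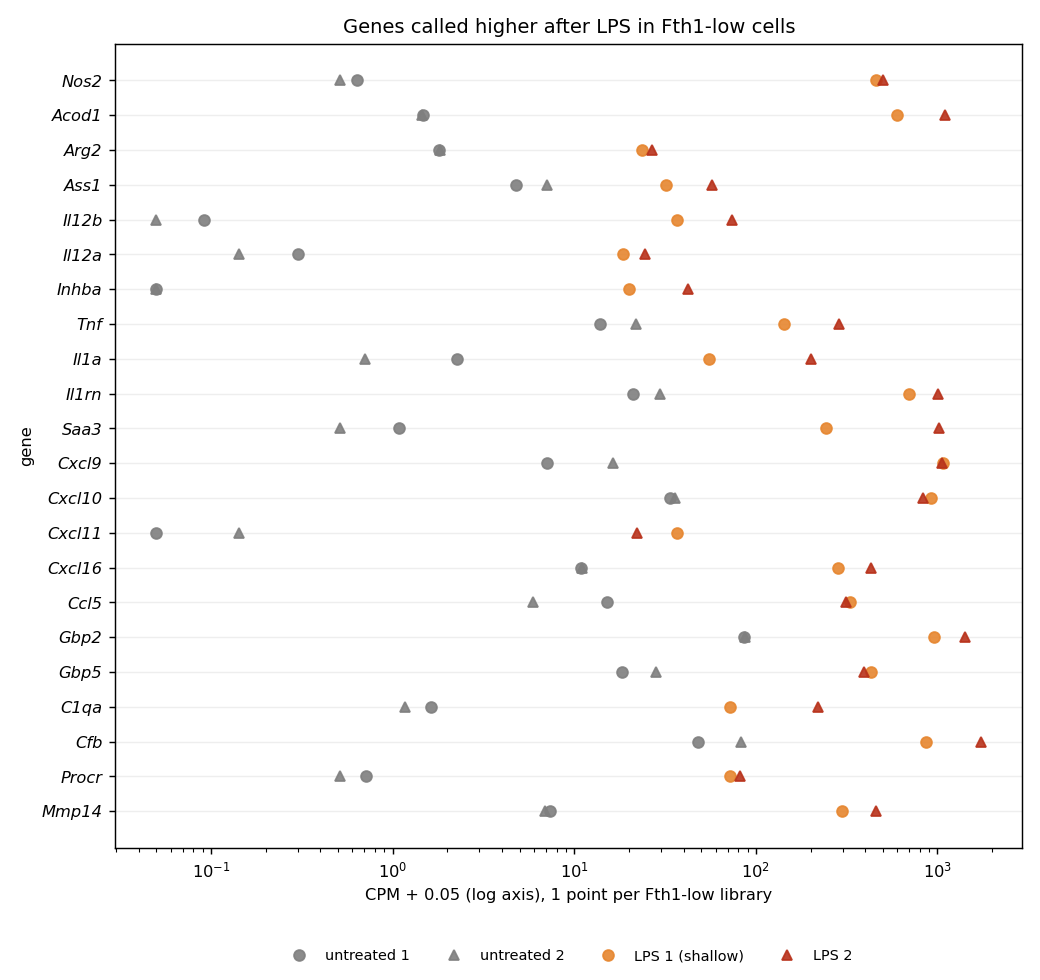
CPM (plus 0.05, log axis) of 22 genes called higher after LPS, 1 point per Fth1-low library. Grey points are untreated, orange and red points LPS replicates 1 and 2; for every gene shown both LPS points lie to the right of both untreated points, with Nos2 at 458 and 503 CPM against 0.583 and 0.466.

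Genes of arginine and itaconate metabolism showed the highest list median, 3.47, with 6 of 8 tested genes higher and 0 lower. Nos2 (chromosome 11, 78920787 to 78960254, plus strand), the inducible nitric oxide synthase, was near absent untreated, at 0.583 and 0.466 CPM, and reached 458 and 503 CPM after LPS (9.78 ± 0.51, adjusted p = 2.2e-05). Acod1 (chromosome 14, 103046977 to 103056573, plus strand), which makes itaconate from the citric acid cycle, went from 1.42 and 1.40 CPM to 597 and 1095 CPM (9.23 ± 0.52, adjusted p = 2.5e-05). Both transcripts were thus at 1.42 CPM or less in each untreated library and at 458 CPM or more in each LPS library. Slc7a2, an arginine importer, was 2.71 and 1.77 CPM untreated and 85.3 and 204 CPM after LPS (6.03 ± 0.49, adjusted p = 1.7e-04, and 5.18 with LPS replicate 1 alone). Ass1, which rebuilds arginine from citrulline, was 4.70 and 6.99 CPM untreated and 31.8 and 57.3 CPM after LPS (3.06 ± 0.34, adjusted p = 9.8e-04, and 2.45 with replicate 1 alone). Arg2, the mitochondrial arginase, was 1.75 and 1.77 CPM untreated and 23.4 and 26.7 CPM after LPS (3.87 ± 0.33, adjusted p = 2.1e-04). Arg1, the cytosolic arginase, was called (2.87 ± 0.54, adjusted p = 0.020), but on 1 count in LPS replicate 1. With that replicate alone its change was 0.49 (adjusted p = 0.91), and its call was also lost without untreated replicate 1 (0.12) or 2 (0.14). The other 5 kept their calls with any 1 library left out.

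Cytokines and mediators followed, with 10 of 21 tested genes higher (47.6%, against 2.99% of all tested genes), 0 lower and a median of 1.38. Both chains of interleukin 12, which drives interferon-gamma production by T and NK cells, rose from trace levels. Il12b, the p40 chain, had 1 count in the untreated libraries together and 36.8 and 73.7 CPM after LPS, a ratio of pooled counts of 2524 (95% counting interval 452 to 99755). Of its LPS counts 1434 came from replicate 2 and 22 from replicate 1, and the log2 change was 10.01 with replicate 1 alone and 11.09 with replicate 2 alone. Il12a, the p35 chain, was 0.250 and 0.0932 CPM untreated and 18.4 and 24.5 CPM after LPS (6.80 ± 0.53, adjusted p = 1.7e-04, and 7.82 without untreated replicate 1). Inhba, the activin A subunit, which the list did not hold, had 0 untreated counts and 20.1 and 42.4 CPM after LPS, at least 233-fold higher in LPS replicate 1 and at least 491-fold higher in replicate 2 when the untreated group is set to 3 counts in all. These 3 transcripts were therefore seen almost wholly in the LPS libraries. Floors and counting intervals cover counting error only.

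Tumor necrosis factor, Tnf, was 13.9 and 21.8 CPM untreated and 142 and 286 CPM after LPS (3.63 ± 0.37, adjusted p = 5.9e-04, and 2.98 with LPS replicate 1 alone). Il1a, interleukin 1 alpha, went from 2.21 and 0.652 CPM to 55.2 and 202 CPM (6.44 ± 0.75, adjusted p = 0.0022). Its size depended on the library, at 5.10 with LPS replicate 1 alone and 7.69 without untreated replicate 1. Il1rn, the antagonist of the interleukin 1 receptor, went from 20.9 and 29.5 CPM to 699 and 1005 CPM (5.09 ± 0.32, adjusted p = 4.7e-05). Saa3, an acute phase apolipoprotein outside the list, was 1.04 and 0.466 CPM untreated and 244 and 1015 CPM after LPS (9.59 ± 1.04, adjusted p = 0.0015). That rise was 8.18 with LPS replicate 1 alone, 10.29 with replicate 2 alone and 10.39 without untreated replicate 1. Il6, Il10, Il27 and Ptgs2, the inducible cyclooxygenase, were called with smaller changes of 2.58, 3.09, 2.14 and 2.03. Each of these 4 lost its call without untreated replicate 1 (adjusted p = 0.11, 0.064, 0.14 and 0.081). Il6, Il10 and Ptgs2 also lost it without untreated replicate 2 (0.087, 0.13 and 0.10), Il6 (0.15, change 1.69) and Il10 (0.068) without LPS replicate 2, and Il27 without LPS replicate 1 (0.072). The list had 6 genes called without untreated replicate 1.

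Chemokine genes rose in 12 of 20 cases (60%, against 2.99% of all tested genes), with 0 lower and a median of 3.02. The ligands of CXCR3, which attract T and NK cells and are classical interferon-gamma targets, rose in both LPS libraries. Cxcl9 (chromosome 5, 92321347 to 92328079, minus strand) was 6.99 and 16.4 CPM untreated and 1079 and 1055 CPM after LPS (6.54 ± 0.47, adjusted p = 9.5e-05, and 7.27 without untreated replicate 2). Cxcl10 was 33.5 and 36.0 CPM untreated and 925 and 837 CPM after LPS (4.66 ± 0.30, adjusted p = 5.2e-05). Cxcl11, listed as a polymorphic pseudogene and not on the list, had 1 untreated count and 36.8 and 22.2 CPM after LPS, a ratio of 785 (95% counting interval 140.2 to 31083). Cxcl10 and Cxcl11 overlap Art3 on the opposite strand, and the labels do not say whether counting used strand. Ligands of other receptors rose as well. Cxcl16, the ligand of CXCR6, was 10.9 and 10.99 CPM untreated and 283 and 432 CPM after LPS (5.04 ± 0.30, adjusted p = 4.0e-05). Ccl5, a ligand of CCR1, was 15.1 and 5.87 CPM untreated and 331 and 312 CPM after LPS (4.90 ± 0.51, adjusted p = 6.8e-04, and 5.77 without untreated replicate 1). The CCR2 ligands Ccl2 and Ccl7, which recruit monocytes, rose by 2.38 ± 0.31 (adjusted p = 0.0026) and 3.86 ± 0.46 (adjusted p = 0.0015). Ccl12, a further CCR2 ligand, had 2 untreated counts and 20.1 and 14.1 CPM after LPS, a ratio of 248 (95% counting interval 68.0 to 2057).

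The neutrophil chemoattractants had lower values in LPS replicate 1 than in replicate 2. Cxcl2 was 53.4 and 109 CPM untreated and 435 and 784 CPM after LPS (2.93 ± 0.42, adjusted p = 0.0046), with adjusted p = 0.0504 without untreated replicate 1 and a change of 3.54 without replicate 2. Cxcl1 was 1.498 and 3.91 CPM untreated and 6.69 and 27.5 CPM after LPS (3.12 ± 0.56, adjusted p = 0.017). With LPS replicate 1 alone, where it had 4 counts, its change was 1.40 (adjusted p = 0.58), and without untreated replicate 1 it was 2.47 (0.11). Their promoter stretches with the NF-kB motif are printed above. Of the receptors for migration, 3 of 19 rose and 2 fell. Among those that rose, Ccr1 was 29.8 and 13.6 CPM untreated and 167 and 253 CPM after LPS (3.28 ± 0.42, adjusted p = 0.0022, and 3.96 without untreated replicate 1). Ccrl2, an atypical receptor that holds chemerin on the cell surface, rose by 2.43 ± 0.28 (adjusted p = 0.0011). The receptors that fell, S1pr5 and Cx3cr1, are described with the nonclassical monocyte genes. Of this list 1 receptor was called lower without either untreated library or LPS replicate 1, and 3 were without LPS replicate 2.

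Complement genes rose in 8 of 18 cases (44.4%, against 2.99% of all tested genes) and 0 fell. The median was 1.48, with 0.75 for LPS replicate 1 alone and 1.89 for replicate 2 alone. The 3 chains of C1q, the recognition unit of the classical pathway made by macrophages, moved together. C1qa was 1.58 and 1.12 CPM untreated and 71.9 and 219 CPM after LPS (6.77 ± 0.63, adjusted p = 4.7e-04). C1qb and C1qc rose by 5.79 ± 0.50 and 5.71 ± 0.49 (both adjusted p = 2.1e-04). All 3 were lower in LPS replicate 1 than in replicate 2, and with replicate 1 alone the changes were 5.66, 4.81 and 4.83. Cfb, factor B of the alternative pathway, was 47.9 and 82.6 CPM untreated and 870.0 and 1741 CPM after LPS (4.33 ± 0.44, adjusted p = 6.1e-04, and 3.71 with replicate 1 alone). C4b was 1.96 and 4.01 CPM untreated and 105 and 91.2 CPM after LPS (5.09 ± 0.44, adjusted p = 2.1e-04), and may share reads with a close copy. C3ar1, the C3a receptor, was 3.16 and 3.73 CPM untreated and 31.8 and 133 CPM after LPS (4.73 ± 0.53, adjusted p = 0.0013, 3.20 with replicate 1 alone and 5.32 with replicate 2 alone). The proteases C1ra and C1s1 were called on 4 and 3 counts in LPS replicate 1 (adjusted p = 0.011 and 0.025). With that replicate alone their changes were 0.64 and 1.67 (adjusted p = 0.68 and 0.59), and C1ra also lost its call without untreated replicate 1 (0.079) or 2 (0.12).

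C1q chains and C3ar1 also stand on the list of macrophage differentiation genes, where 5 of 21 rose and 0 fell with a median of 0.21. The fifth was Mertk, a receptor for apoptotic cells, at 4.20 and 0.932 CPM untreated and 23.4 and 28.01 CPM after LPS (3.25 ± 0.52, adjusted p = 0.0088). Its change was 4.82 without untreated replicate 1, and adjusted p was 0.13 without LPS replicate 2. Adgre1, which encodes F4/80, overlapped between the groups at 313 and 264 CPM untreated and 264 and 588 CPM after LPS (adjusted p = 0.54). Ctsd, a lysosomal protease of the same list, also overlapped, at 301 and 181 CPM untreated and 288 and 825 CPM after LPS (adjusted p = 0.32). The median of the list was -0.21 with LPS replicate 1 alone and 0.48 with replicate 2 alone. Of its 21 changes 11 were positive and 10 negative. Without overlap 7 members were higher and 5 lower, where all tested genes had 16.3% and 23.2%. Among those lower and not called were Apoe (-1.05, adjusted p = 0.48) and Csf1r (-0.54, adjusted p = 0.53).

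**Figure D3:**
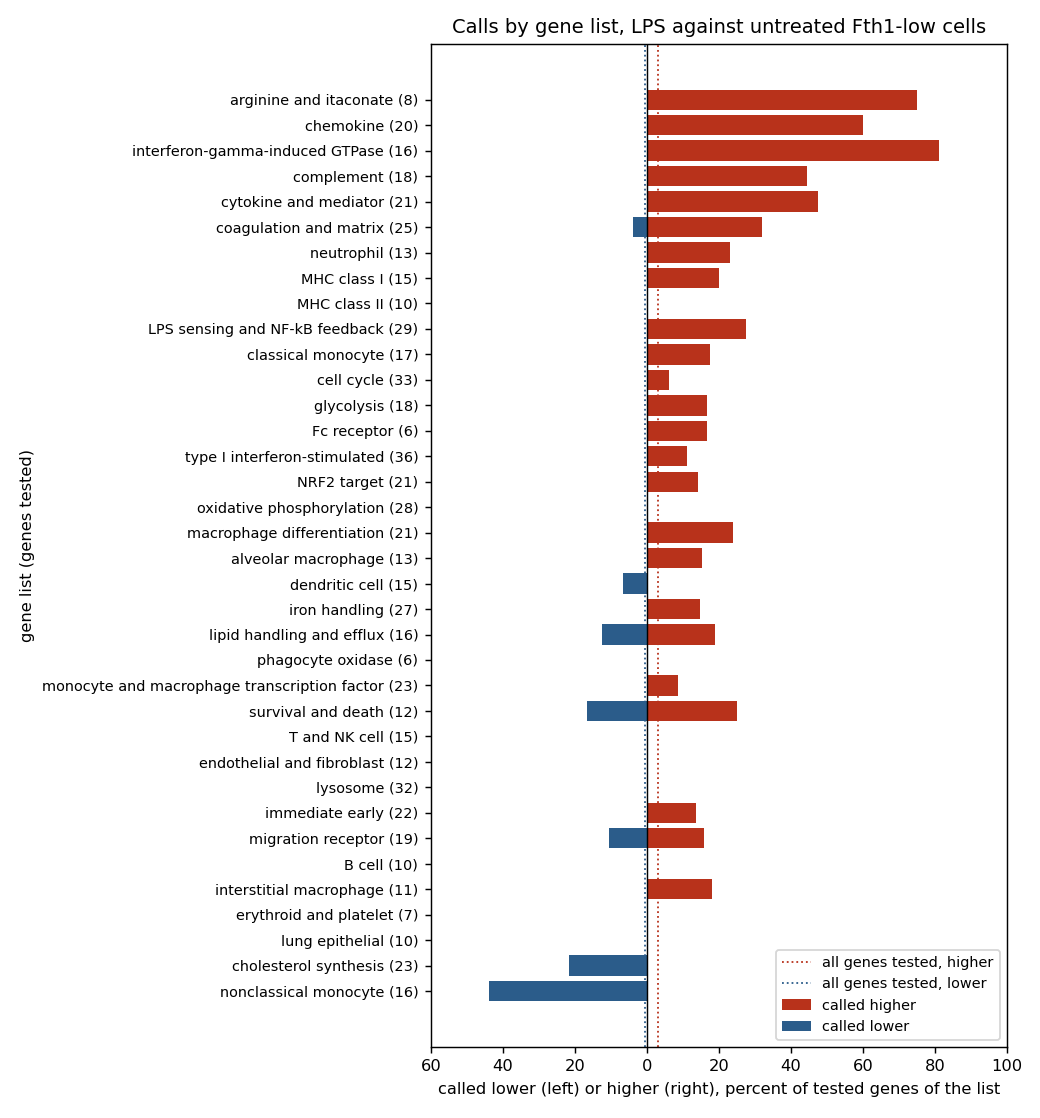
Share of the tested genes of each list called higher (red, to the right) or lower (blue, to the left) after LPS in Fth1-low cells, in percent, with the number of tested genes in parentheses and lists ordered by median log2 change. Dotted lines mark the shares over all 13665 tested genes, 2.99% higher and 0.629% lower; the nonclassical monocyte list has 7 of 16 lower and the interferon-gamma GTPase list 13 of 16 higher.

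Genes of coagulation and matrix turnover rose in 8 of 25 cases and fell in 1, with a median of 1.05. These were 32% and 4%, against 2.99% and 0.629% of all tested genes. Mmp14 (chromosome 14, 54431612 to 54445364, plus strand), a membrane-bound matrix protease, was 7.28 and 6.89 CPM untreated and 299 and 461 CPM after LPS (5.75 ± 0.32, adjusted p = 2.5e-05). Plau, the urokinase plasminogen activator, was 6.24 and 7.08 CPM untreated and 43.5 and 55.2 CPM after LPS (2.94 ± 0.25, adjusted p = 2.1e-04). Procr, the endothelial protein C receptor, outside the list, was 0.666 and 0.466 CPM untreated and 71.9 and 81.4 CPM after LPS (7.01 ± 0.30, adjusted p = 1.1e-05). These 3 separated the groups widely in both LPS libraries. F3, tissue factor, which starts coagulation, was 0.832 and 0.186 CPM untreated and 13.4 and 5.40 CPM after LPS (3.89 ± 0.79, adjusted p = 0.027). Thbd, the anticoagulant receptor thrombomodulin, fell from 293 and 314 CPM to 68.6 and 117 CPM (-1.65 ± 0.34, adjusted p = 0.028). F3 lost its call without untreated replicate 2 (0.14), LPS replicate 1 (0.071) or LPS Fth1-high replicate 3 (0.053), and Thbd without untreated replicate 1 (0.11), untreated replicate 2 (0.15) or LPS replicate 1 (0.17). F7, coagulation factor VII, was also called (2.29, adjusted p = 0.035), but its change was -0.49 with LPS replicate 1 alone (adjusted p = 0.87). Of this list 4, 3, 5, 5 and 5 genes were called higher without untreated replicate 1, untreated replicate 2, LPS replicate 1, LPS replicate 2 and LPS Fth1-high replicate 3. Its median was 0.01 with LPS replicate 1 alone and 1.58 with replicate 2 alone, and 1.80 without untreated replicate 1.

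In the list of LPS sensing and NF-kB feedback genes, 8 of 29 rose (27.6%, against 2.99% of all tested genes). None fell and the median was 0.61. Tnip3, an inhibitor of NF-kB signalling, was 6.66 and 6.24 CPM untreated and 23.4 and 43.5 CPM after LPS (2.50 ± 0.29, adjusted p = 0.0013, and 1.84 with LPS replicate 1 alone). Tlr4, the LPS receptor, was 17.1 and 16.8 CPM untreated and 31.8 and 55.9 CPM after LPS (1.48 ± 0.26, adjusted p = 0.013). Sod2, the mitochondrial superoxide dismutase, rose by 2.28 ± 0.31 (adjusted p = 0.0032), and the feedback inhibitors Tnfaip3 (A20) and Nfkbia (IkB alpha) by 1.49 ± 0.27 and 1.43 ± 0.29 (adjusted p = 0.014 and 0.025). All 5 were higher in each LPS library than in each untreated one. Tnip3 and Acod1 kept their calls with any 1 library left out, but Tlr4, Tnfaip3 and Nfkbia lost theirs without untreated replicate 1 (adjusted p = 0.11, 0.17 and 0.24), untreated replicate 2 (0.12, 0.10 and 0.087) or LPS replicate 2 (0.12, 0.051 and 0.085), and Sod2 without untreated replicate 2 (0.056). Of the list, 3 genes were called without untreated replicate 1, 2 without untreated replicate 2 and 4 without LPS replicate 2. The Tlr4 change was 0.89 with LPS replicate 1 alone.

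The median over type I interferon-stimulated genes was 0.27, but -0.01 without untreated replicate 1 and 0.71 without untreated replicate 2. Of 36 tested, 4 rose (11.1%, against 2.99% of all tested genes) and 0 fell. They were Cxcl10, given above, Ifi205, a DNA sensor-like protein, Isg15, a ubiquitin-like modifier, and Oasl1, an oligoadenylate synthetase-like protein. Ifi205 was 134 and 202 CPM untreated and 470.1 and 589.5 CPM after LPS (1.66 ± 0.26, adjusted p = 0.0076). Isg15 was 47.1 and 66.3 CPM untreated and 182 and 148 CPM after LPS (1.53 ± 0.26, adjusted p = 0.012). Oasl1 was 23.1 and 44.7 CPM untreated and 149 and 139.7 CPM after LPS (2.09 ± 0.38, adjusted p = 0.016). In each case the groups did not overlap. Ifit1, an RNA-binding effector whose promoter stretch holds 2 matches of the interferon motif, was 19.5 and 29.5 CPM untreated and 50.2 and 72.4 CPM after LPS and was not called (1.39 ± 0.33, adjusted p = 0.058). Whether the type I list differed from the GTPase list was not tested. Without untreated replicate 1 only Cxcl10 was called, without LPS replicate 1 only 2 genes. Ifi205, Isg15 and Oasl1 had adjusted p = 0.087, 0.12 and 0.12 in the former fit, and Isg15 and Oasl1 had 0.053 and 0.076 in the latter. Oasl1 also lost its call without LPS replicate 2 (0.071). DESeq2 called 8 of the list.

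Of 15 genes of MHC class I and its peptide supply, 3 rose: the immunoproteasome subunits Psmb9 and Psmb10 and the proteasome activator Psme2. Psmb9 was 78.8 and 79.0 CPM untreated and 182 and 149 CPM after LPS (1.06 ± 0.21, adjusted p = 0.024). Psme2 rose by 1.26 ± 0.24 (adjusted p = 0.019) and Psmb10 by 0.97 ± 0.21 (adjusted p = 0.037). The list had a median of 0.69 and 13 members that did not overlap between groups, all higher, as did 16.3% of all tested genes. Without LPS replicate 1, or either untreated library, none of the 3 was called (adjusted p = 0.052 to 0.32), and 1 or 2 genes were without any other library. DESeq2 called 9 of the 15. No gene of the MHC class II list was called among 10, with a median of 0.68, but DESeq2 called 3, and the fit of the 4 Fth1-low libraries alone and the fit with a replicate block called 2 each. Cd74, the invariant chain, was 2810.3 and 3395 CPM untreated and 3313 and 5256 CPM after LPS (adjusted p = 0.66), and H2-Aa was 848 and 986 CPM untreated and 1278 and 1734 CPM after LPS (adjusted p = 0.32).

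**Figure D4:**
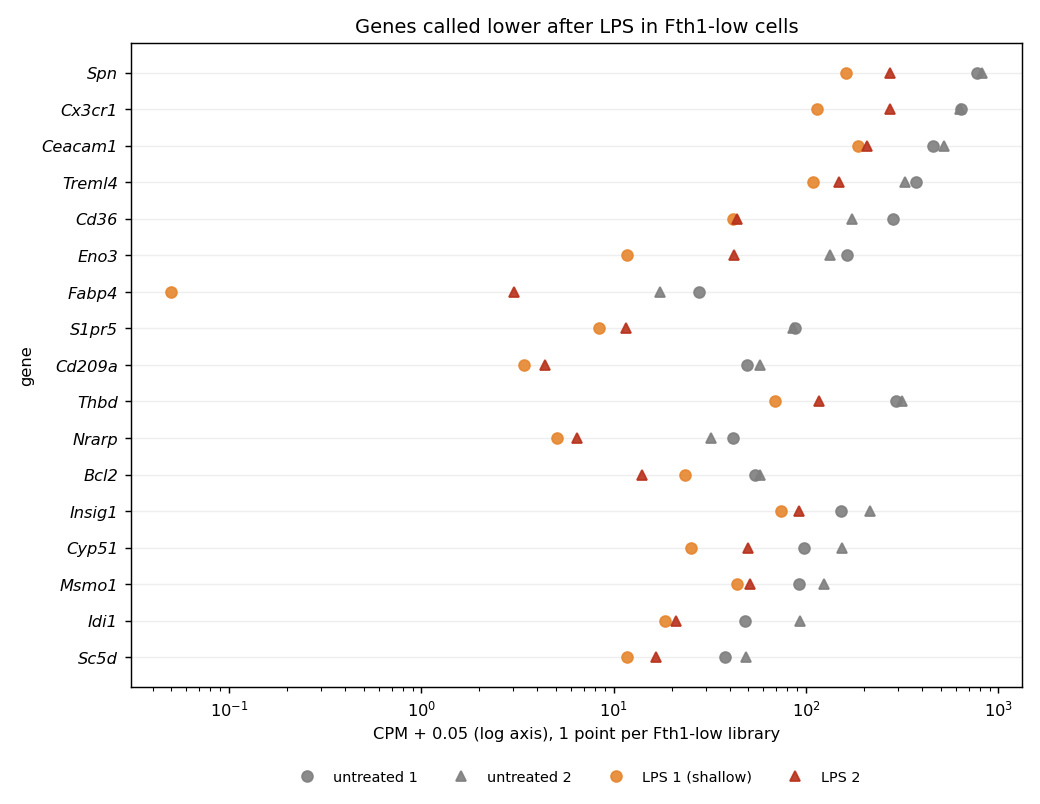
CPM (plus 0.05, log axis) of 17 genes called lower after LPS, 1 point per Fth1-low library. Grey points are untreated, orange and red points LPS replicates 1 and 2; for every gene both LPS points lie to the left of both untreated points, with Spn at 161 and 273 CPM against 777 and 820.3, and Fabp4 had no count in LPS replicate 1.

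The falls included a block of genes that mark nonclassical monocytes. Of 16 tested, 7 fell (43.8%, against 0.629% of all tested genes), 0 rose and all 16 changes were negative. For 15 the groups did not overlap, all lower, a separation that 23.2% of all tested genes showed. The median was -1.46, with -1.57 for LPS replicate 1 alone and -1.20 for replicate 2 alone. These counts hold for the list as drawn up. Fcgr4, an Fc receptor gene that the list did not hold, went the other way. It was 69.0 and 49.8 CPM untreated and 144 and 240 CPM after LPS (1.72 ± 0.38, adjusted p = 0.039). The Fcgr4 change was 1.26 with LPS replicate 1 alone and 2.05 with replicate 2 alone. Spn (CD43; chromosome 7, 127132232 to 127137823, minus strand), a sialoglycoprotein of the patrolling monocyte surface, fell from 777 and 820.3 CPM to 161 and 273 CPM (-1.85 ± 0.27, adjusted p = 0.0052). Cx3cr1, the fractalkine receptor, fell from 639 and 629 CPM to 114 and 272 CPM (-1.67 ± 0.36, adjusted p = 0.035, and -2.50 with LPS replicate 1 alone). Cd36, a scavenger receptor for lipids, fell from 283 and 174 CPM to 41.8 and 43.7 CPM (-2.41 ± 0.39, adjusted p = 0.0092). All 3 lay below the untreated range in both LPS libraries. Treml4 and Ceacam1, surface receptors of these cells, fell by 1.41 and 1.31 (adjusted p = 0.013 and 0.017). Eno3, an enolase, fell from 164 and 134 CPM to 11.7 and 41.9 CPM (-2.20 ± 0.43, adjusted p = 0.025, and -3.68 with LPS replicate 1 alone). Fabp4, a fatty acid carrier, fell from 27.8 and 17.3 CPM to 0 and 2.98 CPM (adjusted p = 0.044). Spn kept its call with any 1 library left out. The other 6 lost theirs in at least 1 such fit, with adjusted p = 0.055 to 0.25 without untreated replicate 1 and 0.058 to 0.13 without LPS replicate 1. Without untreated replicate 2 Cd36 was called and the remaining 5 had 0.065 to 0.16, and without LPS replicate 2 Fabp4, Cd36 and Ceacam1 had 0.097, 0.073 and 0.052. The list had 1 gene called without untreated replicate 1, 2 without untreated replicate 2, 1 without LPS replicate 1 and 4 without LPS replicate 2.

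S1pr5, a sphingosine 1-phosphate receptor needed for the exit of nonclassical monocytes and NK cells into blood, fell from 87.7 and 85.5 CPM to 8.37 and 11.5 CPM (-3.00 ± 0.42, adjusted p = 0.0038). Its call was lost only without LPS replicate 2 (adjusted p = 0.059). Cd209a, a C-type lectin of monocyte-derived dendritic cells, fell from 49.4 and 57.4 CPM to 3.35 and 4.32 CPM (-3.67 ± 0.42, adjusted p = 0.0012) and kept its call with any 1 library left out. It was the only member called of 15 on the dendritic cell list, which had a median of 0.10, but 0.80 with LPS replicate 1 alone and 1.24 without untreated replicate 1. Nrarp, a Notch target that dampens Notch signalling, fell from 41.6 and 32.0 CPM to 5.02 and 6.42 CPM (-2.58 ± 0.44, adjusted p = 0.012), but had adjusted p = 0.052 to 0.098 without any 1 of the 4 Fth1-low libraries. Ltbp4, a binding protein of latent TGF-beta, fell from 24.8 and 23.9 CPM to 6.69 and 3.96 CPM (-2.44 ± 0.37, adjusted p = 0.0056), with 0.057, 0.055 and 0.062 without untreated replicate 1, untreated replicate 2 and LPS replicate 2. Alox5, the 5-lipoxygenase of leukotriene synthesis, fell from 39.4 and 27.2 CPM to 3.35 and 8.02 CPM (-2.24 ± 0.43, adjusted p = 0.020). It lost its call without any 1 of the Fth1-low libraries (0.059 to 0.15), and its change was -3.33 with LPS replicate 1 alone. Tmem26, Tgm3 and Slc14a1, also among the 12 largest falls, had no count in LPS replicate 1.

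Markers of classical monocytes rose in 3 of 17 cases (17.6%, against 2.99% of all tested genes), with 0 lower, 14 not called and a median of 0.46. Without either untreated library 1 of them was called. Vcan, the proteoglycan versican, rose from 54.1 and 81.0 CPM to 386 and 426 CPM (2.59 ± 0.32, adjusted p = 0.0018) and kept its call with any 1 library left out. Clec4e (Mincle) and Clec4d, lectin receptors for mycobacterial and fungal glycolipids, rose by 1.97 ± 0.32 and 1.53 ± 0.33 (adjusted p = 0.0087 and 0.036). Clec4e lost its call without untreated replicate 1 (0.10) or 2 (0.087), and Clec4d without untreated replicate 1 (0.25) or 2 (0.20), LPS replicate 1 (0.051) or 2 (0.16), or LPS Fth1-high replicate 3 (0.054). Of the 17 changes 13 were positive and 4 negative, and Ccr2 was flat (-0.11, adjusted p = 0.97). Without overlap 9 members were higher and 2 lower, where all tested genes had 16.3% and 23.2%. The summed level of the list was 14306 and 15540.1 CPM untreated and 20334 and 22308 CPM after LPS. That of the nonclassical list was 11380.2 and 13179.9 CPM untreated and 5191 and 5484 CPM after LPS.

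Genes of cholesterol synthesis, driven by the transcription factor SREBP2, fell in 5 of 23 cases and rose in 0, and 19 of the 23 changes were negative. The median was -1.04, with -1.02 for each LPS library alone. Idi1, an isomerase of the isoprenoid step, fell from 48.1 and 93.0 CPM to 18.4 and 21.02 CPM (-1.79 ± 0.33, adjusted p = 0.017). Sc5d, a late desaturase, fell from 37.8 and 48.7 CPM to 11.7 and 16.4 CPM (-1.50 ± 0.26, adjusted p = 0.012). Cyp51, which removes a methyl group from lanosterol, fell from 97.3 and 154 CPM to 25.1 and 49.9 CPM (-1.60 ± 0.36, adjusted p = 0.042, and -2.34 with LPS replicate 1 alone). The oxidase Msmo1 and Insig1, which holds SREBP in the endoplasmic reticulum, fell by 1.16 and 1.12 (adjusted p = 0.031 and 0.040). Of these 5, Sc5d lost its call only without untreated replicate 2 (0.12). The groups did not overlap for 15 members that were lower and 2 that were higher. Over all tested genes these shares were 23.2% and 16.3%. The calls were few with a library removed: 2 without untreated replicate 1, 0 without untreated replicate 2, 1 without either LPS library and 2 without LPS Fth1-high replicate 3. Exporters of cholesterol rose, Abca1 from 13.6 and 13.2 CPM to 33.5 and 80.5 CPM (2.21 ± 0.35, adjusted p = 0.0076, and 1.30 with LPS replicate 1 alone) and Abcg1 by 1.17 ± 0.26 (adjusted p = 0.039). On the lipid handling list 3 rose and 2 fell of 16, with 0 higher without either untreated library or LPS replicate 2, and 0 lower without untreated replicate 1 or LPS replicate 1. Abcg1 also lost its call without LPS Fth1-high replicate 1 (0.054) or 3 (0.065).

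Genes of survival and death went both ways. Of 12, 3 rose, the Bcl2a1 paralogs a, b and d, which oppose apoptosis and share most of their sequence, and 2 fell, Bcl2 and Bbc3. Bcl2a1b was 38.2 and 34.3 CPM untreated and 109 and 192 CPM after LPS (2.09 ± 0.36, adjusted p = 0.012). Bcl2, a survival factor of resting leukocytes, fell from 53.9 and 57.2 CPM to 23.4 and 13.98 CPM (-1.76 ± 0.33, adjusted p = 0.018), and Bbc3, the pro-apoptotic PUMA, from 50.5 and 69.8 CPM to 33.5 and 23.8 CPM (adjusted p = 0.048). Bcl2a1b and Bcl2 each lost their call without untreated replicate 1 (0.094 and 0.083) or 2 (0.12 and 0.12) or LPS replicate 2 (0.080 and 0.13), and Bbc3 without any 1 of the 7 libraries (0.070 to 0.37). With 1 library left out the list had 0 to 3 genes called higher and 0 or 1 lower.

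Metabolic, stress and cycle lists had 2 to 4 genes called each. Of 27 iron genes, 4 rose and 0 fell, with a median of 0.10, but -0.33 with LPS replicate 1 alone. They were Lcn2, which binds bacterial siderophores, Steap4, a metalloreductase, Blvrb, a biliverdin reductase, and Slc25a37, the mitochondrial iron importer. Slc25a37 was 56.5 and 60.7 CPM untreated and 132 and 127 CPM after LPS (1.14 ± 0.21, adjusted p = 0.017). None of the 27 was called higher without untreated replicate 1 or without replicate 2, and 2 were higher and 2 lower without LPS replicate 2. Slc7a11, the cystine importer and an NRF2 target, was 3.12 and 3.82 CPM untreated and 56.9 and 62.7 CPM after LPS (4.14 ± 0.41, adjusted p = 5.5e-04), and kept its call with any 1 library left out. It was 1 of 3 genes that rose among 21 NRF2 targets, beside Txnrd1, a thioredoxin reductase (1.41 ± 0.21, adjusted p = 0.0057, and 0.080 without untreated replicate 1), and Srxn1, which lost its call without any 1 of the 7 libraries (0.067 to 0.29). Of the 21, 1 was called without untreated replicate 1 and 2 were without any other library. Of 18 glycolysis genes 3 rose, among them the hexokinase Hk3, from 72.1 and 79.1 CPM to 276 and 297 CPM (1.93 ± 0.25, adjusted p = 0.0024), and 1 was called without untreated replicate 1 or LPS replicate 2. The transcription factor Hif1a rose from 106 and 125 CPM to 246 and 413 CPM (1.53 ± 0.29, adjusted p = 0.018), with 0.18, 0.12 and 0.064 without untreated replicate 1, untreated replicate 2 and LPS replicate 2. Among 22 immediate early genes 3 rose (13.6%), Maff, Ier3 and Egr2, and 0 fell. Their median was -0.27, with 10 changes positive and 12 negative. Without overlap 7 immediate early genes were higher and 8 lower, where all tested genes had 16.3% and 23.2%. Among 33 cell cycle genes 2 rose (6.06%), Mki67 and Ccne1, the latter with 2 counts in LPS replicate 1. The share called higher over all tested genes was 2.99%. Maff, a small bZIP factor, rose by 2.41 ± 0.25 (adjusted p = 6.8e-04) and kept its call with any 1 library left out, and Mki67, a proliferation marker, was 8.91 and 13.2 CPM untreated and 41.8 and 39.0 CPM after LPS (1.87 ± 0.34, adjusted p = 0.016), with adjusted p = 0.0501 to 0.15 without any 1 Fth1-low library. No cell cycle gene was called without either untreated library, and 1 was without any other library. Of the immediate early genes 1 was called without untreated replicate 2, where Ier3 and Egr2 had 0.052 and 0.17, and Egr2 had 0.22 without LPS replicate 2.

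Other lists held no called gene. None of 32 lysosome genes, 28 genes of oxidative phosphorylation and 6 genes of the phagocyte oxidase passed the test. The lysosome list had a median of -0.09, but -0.52 with LPS replicate 1 alone and 0.24 with replicate 2 alone, and its summed level was 28187 and 26791 CPM untreated and 16643 and 26884 CPM after LPS. Psap, the precursor of the saposins, was 11277 and 10892 CPM untreated and 5426 and 8271 CPM after LPS (adjusted p = 0.40). With LPS replicate 1 alone the median over all tested genes was -0.24, and with replicate 2 alone 0.00. The plot of list medians sets both libraries side by side.

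**Figure D5:**
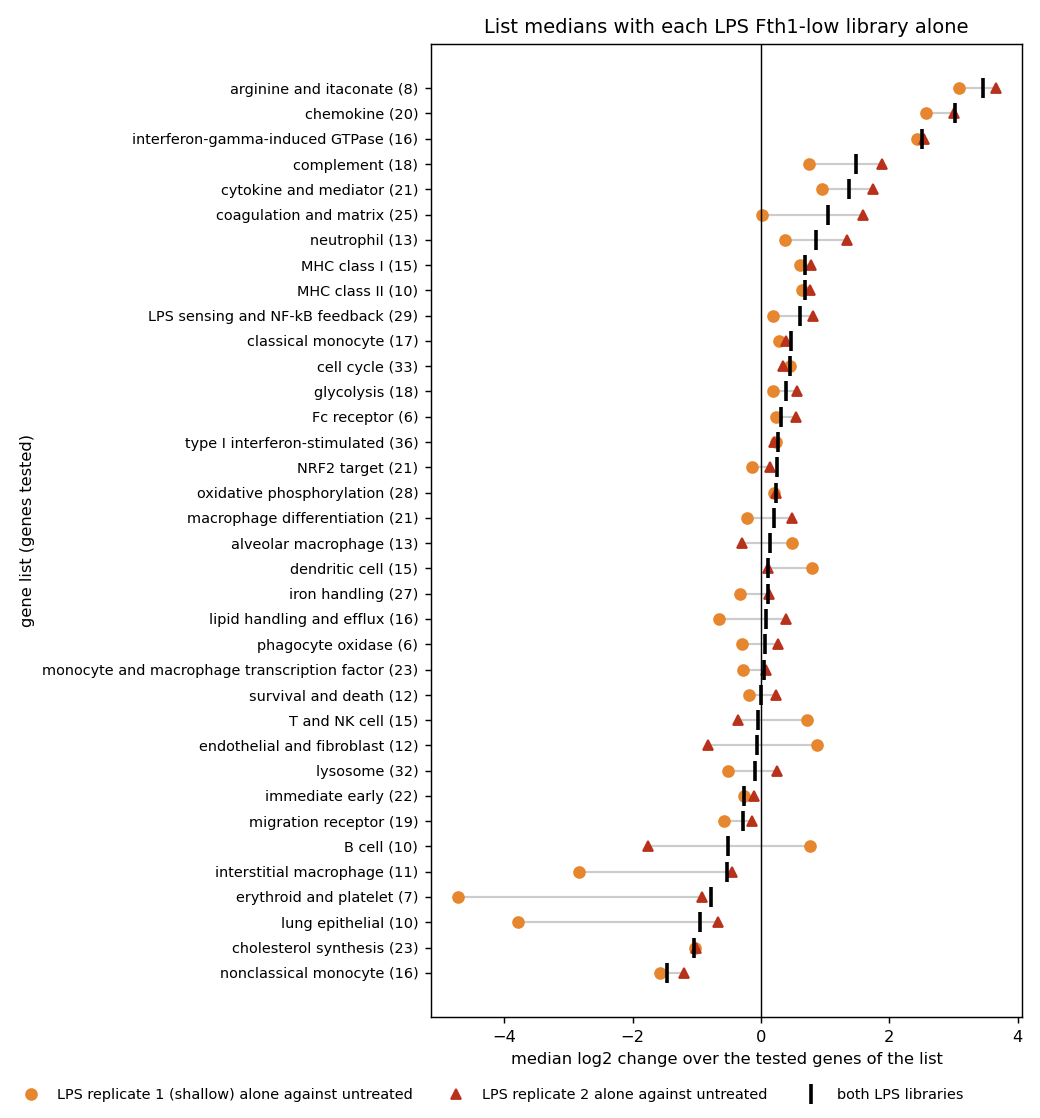
Median log2 change over the tested genes of each list, with orange circles for the shallow LPS replicate 1 alone, red triangles for LPS replicate 2 alone and black bars for both, each against the untreated libraries. The arginine, chemokine and interferon-gamma GTPase lists lie above 2 in both, the cholesterol synthesis and nonclassical monocyte lists lie near or below -1 in both, and lists of low-abundance genes such as the lung epithelial and erythroid lists differ most between the libraries.

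Markers of other cells that a sort could admit were measured beside these results, and their part in them was not tested. Of 13 neutrophil genes tested, S100a8, Il1r2 and Lcn2 rose, and the summed level of the list was 449 and 481 CPM untreated and 795 and 929 CPM after LPS. S100a8 was 11.6 and 5.50 CPM untreated and 63.6 and 81.9 CPM after LPS (3.10 ± 0.50, adjusted p = 0.010), while Ly6g had 0 and 1 counts in the LPS libraries. No neutrophil gene was called without untreated replicate 2 or without LPS replicate 2, and 1 was without untreated replicate 1. Of 13 alveolar macrophage markers Slc7a2 and Olr1 rose, Olr1 by 2.36, and by 1.66 with LPS replicate 1 alone. Their list had a median of 0.14, but 0.47 with LPS replicate 1 alone and -0.30 with replicate 2 alone. Without overlap 4 members were higher and 4 lower, where all tested genes had 16.3% and 23.2%. The sum was 184 and 176 CPM untreated and 329.6 and 503 CPM after LPS, of which Slc7a2 held 85.3 and 204 CPM. Of 11 interstitial macrophage markers Ccl12 and Stab1 rose, Stab1, a scavenger receptor, from 10.4 and 6.89 CPM to 109 and 99.6 CPM (3.57 ± 0.29, adjusted p = 1.7e-04). The median of these markers was -0.53, but -2.84 with LPS replicate 1 alone and -0.45 with replicate 2 alone. It was 0.36 without untreated replicate 1 and -0.94 without untreated replicate 2. Of the 11 changes 7 were negative, and 4 members were lower and 2 higher without overlap. Their sum was 123 and 79.7 CPM untreated and 144 and 161 CPM after LPS, most of the latter from Stab1 and Ccl12 (20.1 and 14.1 CPM). No gene of the B cell, T and NK cell, epithelial, endothelial and fibroblast or erythroid lists was called. B cell sums were 464 and 354 CPM untreated and 405 and 168 CPM after LPS, and T and NK sums 78.5, 41.1, 117 and 41.8 CPM in the same order. Lung epithelial sums were 850.5 and 5.96 CPM untreated and 33.5 and 146 CPM after LPS, so they varied within groups more than between them. Endothelial and fibroblast sums were 319, 126, 388 and 133 CPM, and eosinophil, mast and basophil genes summed to at most 1.62 CPM in any Fth1-low library.

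The LPS libraries also differed from each other. Among genes at 50 CPM or more in the higher of them, the largest excess in replicate 1 was in the small RNAs Vaultrc5, Rnu1a1 and Rn7sk and in genes of stroma and cytoskeleton. Rn7sk was 607 CPM in replicate 1 and 30.7 CPM in replicate 2, with 33.4 and 28.4 CPM untreated. Ccn2, a matricellular growth factor, was 335 against 21.1 CPM, with 10.0 and 8.57 CPM untreated, and Col5a2, a fibrillar collagen chain, was 58.6 against 3.75 CPM, with 3.75 and 4.38 untreated. In LPS Fth1-high replicate 1, which had the next highest ribosomal RNA share, at 8.42%, these 3 were 163, 124 and 15.6 CPM, against 9.71 to 16.9, 6.08 to 8.41 and 3.00 to 3.74 CPM in the other Fth1-high libraries. The largest excess in replicate 2 was in Sftpc, the surfactant protein C of alveolar type II cells, at 68.2 against 5.02 CPM, where the untreated libraries had 494 and 1.40 CPM. Apoe, the lipid carrier apolipoprotein E, was 1287 CPM in replicate 2 and 306 CPM in replicate 1, with 1718 and 1622 CPM untreated. Fpr1, a receptor for bacterial formyl peptides, was 98.2 against 16.7 CPM, with 4.41 and 1.49 CPM untreated, and Nr1h3, the oxysterol receptor LXR alpha, was 52.0 against 11.7 CPM, with 17.4 and 27.9 CPM untreated. These values carry no test, since each is 1 library against another.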

How the data were processed

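The deposited file holds whole-number counts per gene and library for 26130 genes, 6880 without a count. Per the submitters' processing notes, DRAGEN, DESeq2 and mm10 were used, but their versions, the annotation and the strand counted are not stated. Per the labels' protocols, polyadenylated RNA (25 ng) was made into stranded libraries with 15 PCR cycles and read as 58 bp pairs.

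Groups came from the titles. In R 4.3.3, edgeR 4.0.16 fitted 1 robust quasi-likelihood model (filterByExpr, TMM) to all 7 libraries, so the 3 LPS Fth1-high libraries lend degrees of freedom to a contrast of 2 against 2 (4 residual df, a median of 5.38 prior df, a common biological variation of 0.301). Tests were two-sided, and genes were called at a Benjamini-Hochberg adjusted p below 0.05. Standard errors were taken as the log2 change divided by the root of the F statistic, and CPM use TMM-scaled totals. Values with 1 LPS library alone come from fits without the other, where the lone library is assumed to vary like the other groups. Ratios to 1 to 3 untreated counts have exact binomial intervals at 95%. On simulated counts of 13356 genes for this contrast, 8 of 100 changes of log2 1 and 60 of 99 of log2 2 were recovered, and 6.85% of calls were false.

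The comparison, its members and the gene lists were chosen with earlier results of these data known. Named genes are the 12 largest called rises and falls with a mean of 10 CPM and no overlap (gene models, immune receptor segments, ribosomal, mitochondrial and sex-linked genes skipped), up to 4 members of each list by adjusted p or the 2 with the highest CPM, the sort genes, and the 8 largest ratios each way between the LPS libraries. Not all of these are printed, and some are not reported here. F7, Gbp7, Igtp, Iigp1, Ifit1, the uncalled GTPases, further chemokines of their list and the genes of the closing section were chosen after their values were seen. Lists share members: 15 of 21 macrophage differentiation, 8 of 17 classical monocyte, 7 of 16 nonclassical monocyte, 8 of 25 coagulation and 5 of 20 complement genes stand on another list.

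Positions are GENCODE M21 on GRCm38, where 96.2% of symbols matched. Of 145 genes examined one by one, 41 overlap a gene on the opposite strand and 24 one on the same strand. RefSeq promoter stretches that overlap an annotated exon were not printed. Paralogs of Fth1, Ly6c, Gbp, Bcl2a1 and Serpina3 may share reads. Alternatives were other scalings, DESeq2 1.42.0, limma-voom (limma 3.58.1), other filters, the 4 Fth1-low libraries alone, each library left out, a block on replicate number, a fold of at least 1.5, equal total counts, and gene classes left out.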

Additional observations from a re-analysis of the deposited data

How the results depend on the processing

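Against 409 genes higher and 86 lower, DESeq2 gave 624 and 188, a minimum fold of 1.5 gave 278 and 21, and leaving out 1 library gave 179 to 386 higher and 11 to 249 lower, with 282 higher and 249 lower when LPS replicate 2 was the library left out. In that fit 12 of the 495 calls changed direction. The other scalings gave 413 to 426 higher and 94 to 110 lower, limma-voom 397 and 127, no filter 452 and 118, a mean of at least 10 CPM 418 and 119, the 4 Fth1-low libraries alone 367 and 91, libraries thinned to equal total counts, ribosomal RNA included, 338 and 107 of 8059 genes tested, ribosomal RNA genes left out 418 and 77, and mitochondrial and ribosomal protein genes left out 418 and 91. Of 130 called genes examined one by one, 52 kept their call in all 7 fits that left out 1 library, 130 kept it with DESeq2 and 115 with the 4 Fth1-low libraries alone. Under the alternatives run, F7 alone of these changed direction, at -0.49 without LPS replicate 2 and up to 3.01 without untreated replicate 1. Of the uncalled sort and macrophage genes, Itgam was 0.018 without untreated replicate 2 and ranged from -0.52 to 0.10 over the fits without a library, and Adgre1 ranged from -0.15 without LPS replicate 2 to 1.06 without LPS replicate 1. The cause of these shifts was not tested.

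The replicate number as a block gave 576 genes higher and 165 lower. Deviations from the group means, across 13665 genes, had a correlation of -0.037 between same-numbered untreated and LPS Fth1-low libraries. With the Fth1-high library of the same number it was 0.27 for LPS Fth1-low replicate 1, 0.088 for replicate 2, and 0.10 and 0.29 for untreated replicates 1 and 2. In a group of 2 libraries the deviations are exact opposites, so these values are not independent of each other. They cannot settle whether the numbers mark pairs. The labels name no shared batch, and the main fit did not take the numbers as pairs.

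Of the 86 genes called lower, 25 had under 10 counts in LPS replicate 1 and 5 had none, and of the 409 called higher 110 had under 10 counts there.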

Other observations

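Families outside the lists were looked at after their values were seen. CD300 receptors, paired activating and inhibitory immunoglobulin-like receptors of myeloid cells, had 4 of 11 tested genes lower and 1 higher, with a median log2 change of -1.32. For this and the families below, the shares over all tested genes were 0.629% lower and 2.99% higher. Cd300e, an activating receptor of nonclassical monocytes, was 45.9 and 37.1 CPM untreated and 1.67 and 11.4 CPM after LPS (-2.16 ± 0.43, adjusted p = 0.024 by edgeR), and Cd300lb was 219 and 197 CPM untreated and 56.9 and 63.7 CPM after LPS (-1.77 ± 0.29, adjusted p = 0.0094). Cd300a, an inhibitory receptor, and Cd300ld fell by 1.18 and 1.32 (adjusted p = 0.018 and 0.025). These 4 lost their calls without untreated replicate 1 (adjusted p = 0.057 to 0.15), Cd300a, Cd300e and Cd300ld also without untreated replicate 2 (0.10 to 0.13), Cd300a, Cd300lb and Cd300ld without LPS replicate 1 (0.060 to 0.063), and Cd300lb without LPS replicate 2 (0.055). The Cd300e change was -4.65 with LPS replicate 1 alone. Cd300lf, an inhibitory receptor that binds sphingomyelin-rich membranes, went the other way, from 22.8 and 25.1 CPM to 125 and 174 CPM (2.67 ± 0.26, adjusted p = 4.6e-04), and kept its call with any 1 library left out.

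Of 5 tested genes for the receptors of interleukin 12 and 18 and their decoy, 2 rose and 0 fell. Il18bp, the soluble decoy for interleukin 18, was 1.96 and 2.70 CPM untreated and 80.3 and 60.8 CPM after LPS (4.91 ± 0.32, adjusted p = 5.2e-05 by edgeR), and Il12rb1, a chain of the interleukin 12 receptor, was 0.583 and 0.745 CPM untreated and 11.7 and 14.8 CPM after LPS (4.43 ± 0.47, adjusted p = 7.2e-04, and 0.063 without LPS replicate 2). The other changes were -1.12 for Il12rb2, -0.93 for Il18r1 and 2.10 for Il18rap (adjusted p = 0.14, 0.67 and 0.11). Serpina3g and Serpina3f, intracellular protease inhibitors with close copies, rose by 4.69 ± 0.35 and 4.29 ± 0.41 (adjusted p = 1.2e-04 and 4.6e-04), the 2 called of 5 tested in their family. Hes1, a transcriptional repressor downstream of Notch, fell from 65.6 and 61.2 CPM to 10.04 and 15.2 CPM (-2.18 ± 0.28, adjusted p = 0.0020) and kept its call with any 1 library left out. With Nrarp it was 1 of 2 genes lower among 15 Notch receptors and targets, a set with a median of 0.11.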
